A study of Homo sapiens with 9 samples.

Results

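The 9 libraries of this series came from OVCA433, an established human ovarian cancer cell line, and each carried a replicate letter. The 3 libraries lettered A (1 from each treatment group) were compared here with the 6 lettered B or C, taking the letter from the sample titles. The treatment groups were cells with an shRNA control vector, named in the study's methods as an empty vector, and cells with shRNA hairpin #1 or hairpin #3 against MPZL3, with 3 libraries each. The hairpins were carried by lentivirus in the pLKO.1 backbone and transduced cells were selected with puromycin, so the cultures are selected populations and not clones. The study calls them biological replicates. The labels do not say whether a letter marks a shared culture round, transduction or library preparation. If it does, 1 letter was compared with 2 others, and the p-values below take the 3 treatment groups as the replicates of that letter.

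NF-kB is a transcription factor held in the cytoplasm by IkB proteins until cytokines or stress release it, after which it drives chemokines, interleukins and its own inhibitors. E2F factors switch on the genes of DNA synthesis once cyclin-dependent kinases inactivate the retinoblastoma proteins. Ovarian cancer lines are known to secrete chemokines such as CXCL1 and CXCL8.

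Library totals ranged from 16850854 to 23890191 counts, and levels are given in CPM, each count relative to its library size after TMM scaling. MPZL3, the gene both hairpins target (ENSG00000160588, chr11:118226690-118252350 on GRCh38), stood at 15.6 CPM in A against 21.9 and 21 in B and C with the control vector, 1.87 against 1.98 and 1.8 with hairpin #1, and 1.94 against 0.988 and 1.8 with hairpin #3. The knockdown was therefore seen under all 3 letters, and the difference between the letters did not pass the test (a log2 difference of -0.17, SE 0.18, edgeR adjusted p = 0.55). Of the 14 markers of serous ovarian cells, 11 were tested, and PAX8, a transcription factor of the Mullerian lineage, was at 115 to 214 CPM in A and 82.3 to 229.7 CPM in B and C. WT1, another serous marker, had no count in any library. Of 26 markers of other cell types (leukocyte, endothelial, hepatocyte, adipocyte, neural, muscle, erythroid and fibroblast genes), 8 passed the filter, and MS4A1, LYZ, HBB and DCN had no count. The 8 summed to 7.26 to 28.6 CPM in A and 7.71 to 43.1 CPM in B and C. PDGFRB and CDH5 were called lower in A, at log2 differences of -0.71 and -0.90 (edgeR adjusted p = 0.00934 and 0.0473), and the first of these calls was lost without hairpin #1 A and the second when any 1 of 7 libraries was left out.

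Of 15975 genes tested with the treatment group as a block, 3061 (19.2%) differed between A and the other letters at an edgeR adjusted p-value under 0.05. In A, 1512 (9.46%) were higher and 1549 (9.70%) were lower. A 2-fold difference was rarer and lay mostly on the lower side, with 175 genes (1.10%), of which 28 were higher and 147 lower. The median absolute log2 difference of the called genes was 0.353. Calls were more frequent among abundant genes, with 2602 called of the 9693 at a mean of 10 CPM or more. The shares over all tested genes, set beside gene lists below, are thus low for lists of abundant genes. Among the 3061, 3001 had the same sign in all 3 treatment groups, and in 2778 the A library lay beyond both others in every group. The calls were made on the mean over these same groups, so this agreement follows in large part from the calling. The sign was shared in 51.78% of all 15975 tested genes. Over all tested genes A lay above B and C in every group for 16.0% and below them for 15.4%. The count rested on all 3 A libraries, being 1731 without control A, 1389 without hairpin #1 A and 1535 without hairpin #3 A. Without the treatment block, 0 genes were called by edgeR and 1789 had an unadjusted p-value under 0.05, since the hairpins then counted as spread within a letter.

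Few genes were called between B and C. With a term for each letter, A against B gave 1382 genes (8.65%), A against C gave 3343 (20.9%, 1611 higher and 1732 lower, or 1997 and 1408 with libraries scaled to their totals), and B against C gave 3 (0.0188%), with 1274 at an unadjusted p-value under 0.05. DESeq2 called 17 genes between B and C. The 3 called by edgeR were ALDH1A3 and IGFBP6, higher in C, and the kinetochore motor gene CENPE, higher in B, all named after their values were seen. Of the 3061 genes, 1224 were also called against both B and C, 1394 against C only, 126 against B only and 317 against neither. On the first principal component of the residuals within treatment groups, which held 41.56% of their variance, the A libraries lay at 19.34, 23.15 and 22.14. In the same order of groups (control, hairpin #1, hairpin #3), B lay at -5.89, -11.09 and -5.18 and C at -13.45, -12.06 and -16.96. B thus lay between A and C in each group. The second component (15.94%) set hairpin #1 B at 22.53 apart from hairpin #1 C at -13.09.

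The difference of A was also shared between treatment groups, which have no library in common. Across 9693 genes at a mean level of 10 CPM or more, A minus the mean of B and C correlated between the control vector and hairpin #1 at 0.62, between control and hairpin #3 at 0.63, and between the hairpins at 0.68. These are correlations across genes, which are not independent replicates. The sign was the same in all 3 groups for 60.74% of these genes. Across all 15975 tested genes the correlations were 0.42, 0.40 and 0.47.

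**Figure D1:**
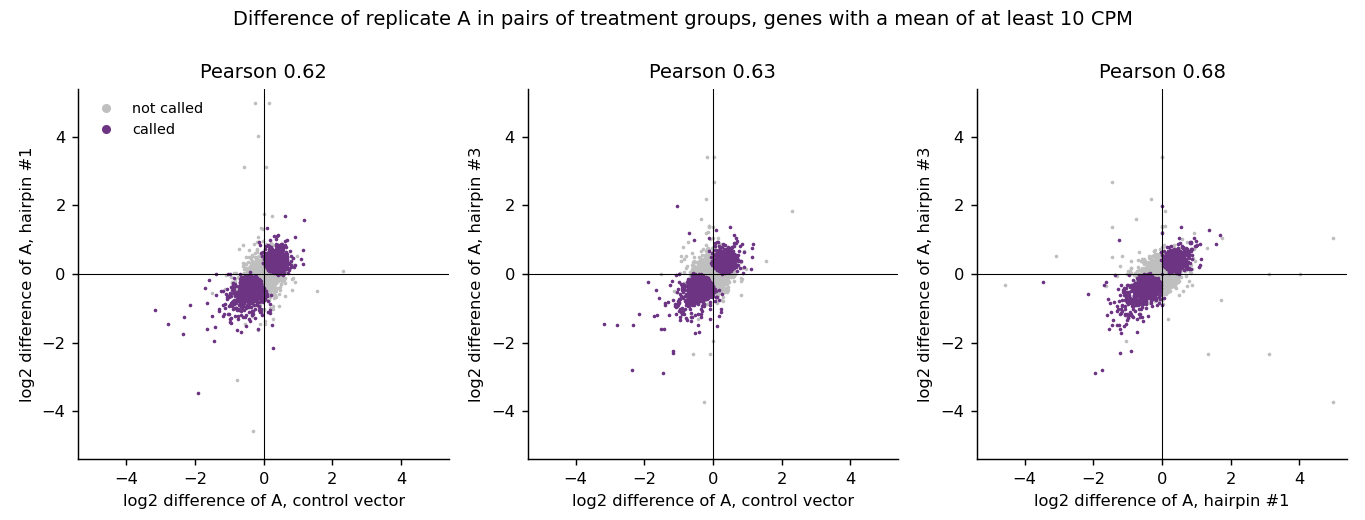
Each point is a gene at 10 CPM or more on average, and each axis is the log2 difference of A from the mean of B and C in 1 treatment group. Genes were called on their mean over these groups, so most called genes (purple) lie in the lower left and upper right. The Pearson correlations over all points, called or not, are 0.62, 0.63 and 0.68.

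Chemokines and interleukins were lower in A. Of 38 listed cytokine and chemokine genes, 23 were tested, and 15 of them (65.2%) were called lower against 9.70% of all tested genes, with none called higher. The median log2 difference was -0.68, against -0.02 over all tested genes. The largest falls among abundant genes were in CXCL1 and CXCL8, secreted attractants of neutrophils that bind the receptor CXCR2. CXCL1 (ENSG00000163739, chr4:73869393-73871242) stood at 12.6 CPM in A against 62.1 and 66.9 in B and C with the control vector, 196 against 719 and 600.1 with hairpin #1, and 132 against 933 and 883 with hairpin #3. All 3 A libraries lay below both others of their group by over 3-fold (a log2 difference of -2.26, SE 0.14, edgeR adjusted p = 2.12e-07). CXCL8 (ENSG00000169429, chr4:73740506-73743716) stood at 5.42 CPM in A against 15.4 and 14.3 in B and C with the control vector, 28.6 against 129.5 and 93.4 with hairpin #1, and 17.6 against 113 and 146 with hairpin #3. The groups again did not overlap within any treatment (a log2 difference of -2.17, SE 0.19, edgeR adjusted p = 5.14e-06). IL6 (ENSG00000136244, chr7:22725884-22732002), the interleukin that acts through gp130 and STAT3, was low in every library with the control vector, at 1.21 CPM in A against 1.69 in B and 2.34 in C. It stood at 5.65 CPM in A against 35.6 in B and 21.1 in C with hairpin #1 and at 1.29 CPM in A against 5.98 in B and 7.64 in C with hairpin #3 (a log2 difference of -2.04, SE 0.26, edgeR adjusted p = 0.000125).

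Interleukin 1, the cytokine that itself activates NF-kB, was also lowest in A, but B lay below C in each group. For IL1B the log2 difference was -1.06 for A minus B and -0.95 for B minus C, the latter not called. B minus C was -0.43 for IL1A, also not called, against 0.08 for CXCL1 and 0.04 for CXCL8. IL1B stood at 5.38 CPM in A against 7.96 and 16.2 in B and C with the control vector, 69 against 113 and 207 with hairpin #1, and 44.8 against 148 and 295 with hairpin #3 (a log2 difference of -1.61, SE 0.27, edgeR adjusted p = 0.000973). IL1A, the other interleukin 1 agonist, was at 5.57 to 40 CPM in A and 7.27 to 107 CPM in B and C, with A below B and C in each group (a log2 difference of -1.02, SE 0.14, edgeR adjusted p = 0.000205). CXCL2 and CXCL3, neighbours of CXCL1 on chromosome 4, were lower at log2 differences of -1.45 and -1.53 (edgeR adjusted p = 0.000261 and 0.000353), and reads may be split among these near-identical copies. LIF, a cytokine of the IL6 family, was lower at -0.68 and CSF1, the macrophage growth factor, at -0.48 (edgeR adjusted p = 6.7e-05 and 0.00361). CSF3 had under 1 CPM in every library, so its call is given without a fold, and it was lost when any 1 of 6 libraries was left out. IL11 and IL15 did not pass the test, at 0.01 and 0.02. With 1 library left out, 12 to 15 members were called lower.

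Short stretches of the promoters of the called chemokines and interleukins are shown because they hold the kappaB element that NF-kB proteins bind. The search covered 250 bases before to 50 after each gene start in RefSeq (GRCh38.p14), for GGANTTTCC on both strands, and capitals mark the match. Each line reads 5′ to 3′ on the strand of the gene.
CXCL1 (chr4:73869305-73869333, plus strand): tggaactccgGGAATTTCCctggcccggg
CXCL2 (chr4:74099254-74099282, minus strand): tggagctccgGGAATTTCCctggcccggg
CXCL3 (chr4:74038749-74038777, minus strand): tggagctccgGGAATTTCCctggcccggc
CXCL8 (chr4:73740468-73740496, plus strand): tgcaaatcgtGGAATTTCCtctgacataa
IL6 (chr7:22727118-22727146, plus strand): atcaaatgtgGGATTTTCCcatgagtctc
IL32 (chr16:3065325-3065353, plus strand): tcccgagtctGGACTTTCCctctgcccct
The match began 77 or 78 bases before the gene start in CXCL1, CXCL2 and CXCL3. It began 91 bases before the start of CXCL8 and 72 before that of IL6. Of the 10 called members with a promoter in the table, 6 held a match (IL32 in 2 places, 1 shown) and IL1A, IL1B, EBI3 and GDF15 held none, against 1.64% of 27305 promoters and 1.59% of the 10573 of tested genes. The whole cytokine list, called or not, had 6 of 15 (40.0%), so the list itself was rich in the match. A match is a description of letters and was not tested as a binding site.

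Inhibitors and other products of NF-kB signalling were lower as well. Of 23 tested genes of the NF-kB list, 15 (65.2%) were called lower and none higher, with a median of -0.54. NFKBIA, which encodes the inhibitor IkB alpha, stood at 29.6 CPM in A against 50.5 and 61.6 in B and C with the control vector, 36 against 75.5 and 61.6 with hairpin #1, and 29.1 against 60.1 and 66.1 with hairpin #3 (a log2 difference of -0.99, SE 0.09, edgeR adjusted p = 8.53e-06). IER3, an early response gene, was at 62.4 to 89.7 CPM in A and 136 to 179 CPM in B and C with the same order in each group (a log2 difference of -1.03, SE 0.10, edgeR adjusted p = 1.2e-05). BIRC3, an inhibitor of apoptosis, and TNFAIP3, the deubiquitinase A20, were lower at -0.93 and -0.61 (edgeR adjusted p = 4.29e-05 and 0.000266). The subunit genes went less far. RELB was lower at -0.69, NFKB2 at -0.53 and RELA at -0.20 (edgeR adjusted p = 0.00162, 0.000748 and 0.0497), while NFKB1 and REL did not pass the test at -0.01 and 0.34. LTB reached at most 2.44 CPM in any library and lost its call when any 1 of 6 libraries was left out. Without 1 library at a time, 11 to 16 members were called lower.

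**Figure D2:**
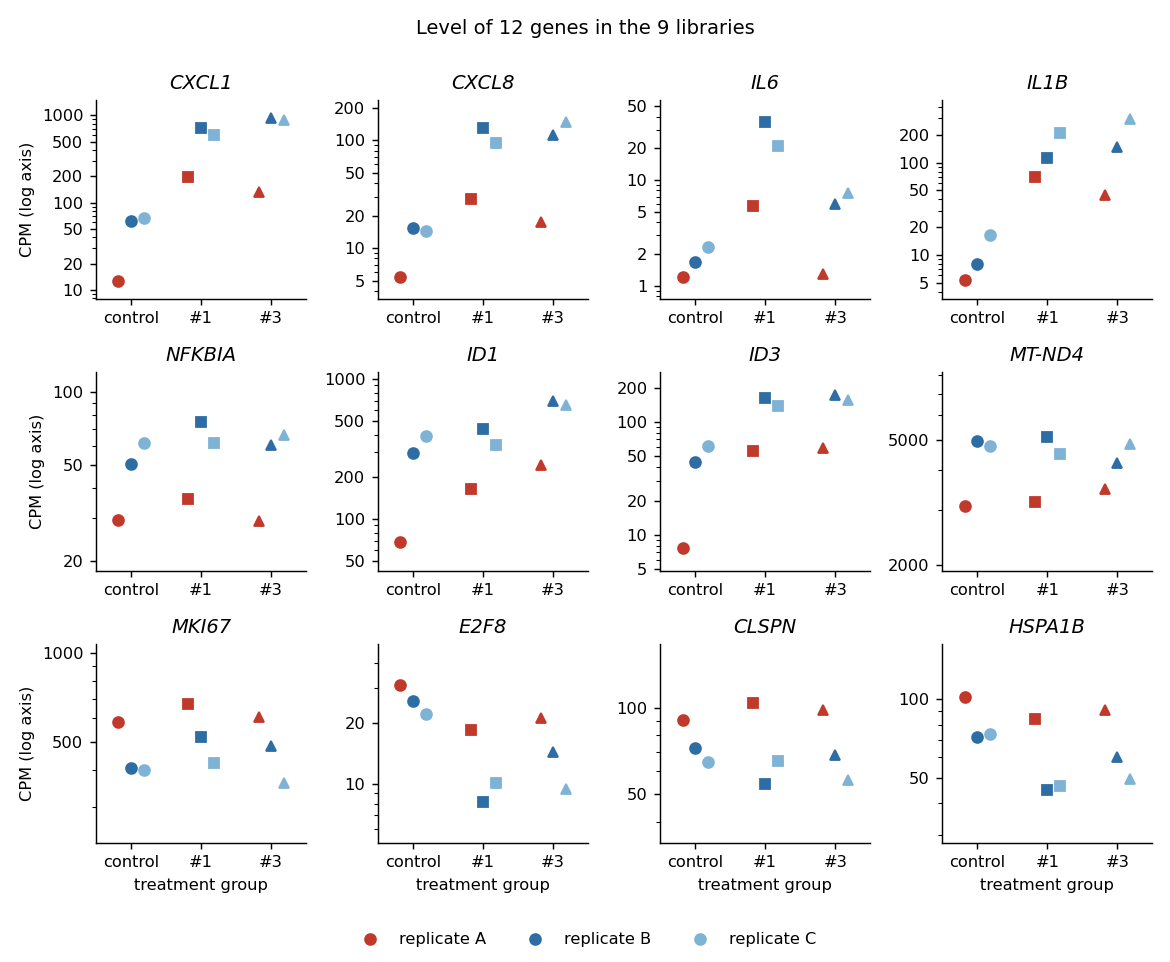
CPM on log axes of 12 genes in the 9 libraries, grouped by treatment and coloured by replicate letter, each point being 1 library. In every panel the 3 A libraries (red) lie on the same side of both others of their group, below for CXCL1, CXCL8, IL6, IL1B, NFKBIA, ID1, ID3 and MT-ND4 and above for MKI67, E2F8, CLSPN and HSPA1B. The genes were picked from those called, some by a rule that requires A beyond B and C in all 3 groups. The shared side is therefore not a separate result.

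The senescence-associated secretory list shares its leading members with the cytokines. Of 15 tested members, 10 (66.7%) were called lower, and 1, LMNB1, was called higher. The median was -1.02, and it shrank to -0.58 without hairpin #3 C. LMNB1, the nuclear lamina gene whose loss marks senescence, was at 181 to 220.1 CPM in A and 139.7 to 176 CPM in B and C, with A above B and C in each group (a log2 difference of 0.34, SE 0.07, edgeR adjusted p = 0.00357). PLAU and VEGFA did not pass the test, at -0.24 and -0.19.

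Acute phase and complement genes were listed after the largest falls had been seen, so their counts are a description. Of 20 tested, 13 (65.0%) were lower in A. LCN2, a secreted iron-siderophore carrier, stood at 78.5 CPM in A against 305 in B and 283 in C with the control vector and under 1 CPM in all libraries with either hairpin, and its call (a log2 difference of -1.83, SE 0.17, edgeR adjusted p = 8.53e-06) was lost without control A. C3, the central complement component, was at 48.9 to 336 CPM in A and 149 to 1394 CPM in B and C (a log2 difference of -1.48, SE 0.16, edgeR adjusted p = 3.79e-05), and hairpin #1 B stood apart at 1394 CPM against 657 in C. ZC3H12A, an RNase that degrades cytokine mRNA, was at 16.6 to 47.6 CPM in A and 40.1 to 130 CPM in B and C (a log2 difference of -1.44, SE 0.12, edgeR adjusted p = 5.14e-06). SAA2 and TNFAIP6 had few reads, at means of 0.897 and 1.17 CPM, and lost their calls when any 1 of 4 and of 7 libraries was left out. Without hairpin #1 A, 8 members of the list were called.

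Interferon-stimulated genes moved in part. Of 42 tested, 14 (33.3%) were lower, none was higher, and 28 did not pass, with a median of -0.23. IFI6, a mitochondrial antiviral protein, stood at 3.92 CPM in A against 12.8 and 8.08 in B and C with the control vector, 7.34 against 21.2 and 21.5 with hairpin #1, and 8.71 against 30.4 and 22.6 with hairpin #3 (a log2 difference of -1.53, SE 0.15, edgeR adjusted p = 1.05e-05). STAT2, the interferon signalling factor, was lower at -0.63 and the ubiquitin-like modifier ISG15 at -0.63 (edgeR adjusted p = 0.000278 and 0.000377). IFI27 and IFITM1 were lower at -0.81 and -1.40, calls that were lost without hairpin #1 A or hairpin #3 A. With the control vector IFI27 was not lower, at 4.26 CPM in A against 4.23 and 3.01 in B and C. IFIT1 and IRF1 did not pass, at 0.01 and 0.07. Without hairpin #1 A, 6 members were called lower.

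Targets of BMP and SMAD signalling stood beside the cytokines among the largest falls. BMP ligands act through SMAD1, SMAD5 and SMAD9 on the ID genes, whose products block basic helix-loop-helix factors and hold back differentiation, and on the inhibitory SMADs that end the signal. ID1 stood at 68.4 CPM in A against 296 and 391 in B and C with the control vector, 163 against 441 and 339 with hairpin #1, and 242 against 698 and 651 with hairpin #3 (a log2 difference of -1.66, SE 0.15, edgeR adjusted p = 8.57e-06). ID3 was at 7.65 to 59.1 CPM in A and 44.1 to 173 CPM in B and C, and A lay lowest in each group (a log2 difference of -1.77, SE 0.17, edgeR adjusted p = 1.2e-05). ATOH8, a BMP-responsive transcription factor, was at 0.145 to 15.5 CPM in A and 0.448 to 43.3 CPM in B and C (a log2 difference of -1.33, SE 0.22, edgeR adjusted p = 0.000813). SMAD6 and SMAD7, the inhibitory SMADs, were lower at -1.17 and -1.08 (edgeR adjusted p = 2.71e-05 and 3.35e-05). In a list of this pathway drawn up after these genes had been seen, 16 of 23 tested members (69.6%) were lower and none higher, and 12 to 17 were lower with 1 library left out.

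Immediate early genes and targets of YAP and SRF were lower in smaller numbers. Of 39 tested AP-1 and immediate early genes, 12 (30.8%) were lower and none higher, and 7 were lower without hairpin #3 A and 8 without hairpin #1 A. DUSP1, a phosphatase that switches off MAP kinases, was at 19.4 to 34.4 CPM in A and 33.2 to 81.3 CPM in B and C (a log2 difference of -0.995, edgeR adjusted p = 2.03e-05), and JUNB, an AP-1 subunit, at 20.6 to 42.4 CPM in A and 32.2 to 79.3 CPM in B and C (a log2 difference of -0.81, SE 0.11, edgeR adjusted p = 0.000151). The median of this list was -0.13, and it was -0.073 for A minus B but -0.166 for B minus C. With the control vector it was -0.056. Of 36 YAP and SRF targets, 11 (30.6%) were lower and 3 higher. Their median was -0.108 with the control vector, -0.124 with hairpin #1 and -0.02 with hairpin #3. Their summed level with hairpin #3 was 30970 CPM in A against 30840 in B and 32820 in C, so A was not below B there. CTGF, a matricellular YAP target, was at 75.1 to 192 CPM in A and 91.9 to 428 CPM in B and C (a log2 difference of -0.86, SE 0.14, edgeR adjusted p = 0.000723), and TPM1, an actin-binding tropomyosin, at 478 to 601 CPM in A and 570.4 to 1292 CPM in B and C (a log2 difference of -0.72, SE 0.11, edgeR adjusted p = 0.000359). Without control A or without hairpin #1 A, 6 of these targets were called lower.

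Of 28 tested mesenchymal and matrix genes, 11 (39.3%) were lower and 1 higher, with a median of -0.19. The median was 0.024 with the control vector, -0.281 with hairpin #1 and -0.195 with hairpin #3, so the list was not lower as a group with the control vector. LOX, which cross-links collagen, was at 15.4 to 116 CPM in A and 23.1 to 209.7 CPM in B and C, with A lowest in each group (a log2 difference of -0.75, SE 0.08, edgeR adjusted p = 3.41e-05). FN1, fibronectin, was lower at -0.70 (edgeR adjusted p = 0.00462). VIM and CDH2, the intermediate filament and cadherin of mesenchymal cells, did not pass the test, at 0.02 and -0.10 (edgeR adjusted p = 0.898 and 0.389), and ZEB1 and SNAI2 did not pass either, at 0.20 and 0.09. COL3A1 was called higher but stayed under 2 CPM in every library and lost its call when any 1 of 3 libraries was left out. The count of lower members was 2 without hairpin #1 A, 5 without hairpin #3 A and 6 without hairpin #3 C.

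Genes of DNA synthesis were higher in A. All 42 tested S phase genes had a positive log2 difference, and 33 (78.6%) were called higher against 9.46% of all tested genes, with a median of 0.31. The differences were small next to those of the chemokines and ran from 0.07 to 0.72. E2F8 (ENSG00000129173, chr11:19224063-19241620), a repressor that E2F itself induces, stood at 30.9 CPM in A against 25.8 and 22.2 in B and C with the control vector, 18.5 against 8.19 and 10.1 with hairpin #1, and 21.2 against 14.4 and 9.48 with hairpin #3 (a log2 difference of 0.72, SE 0.13, edgeR adjusted p = 0.00163). CCNE2, the cyclin that starts S phase with CDK2, was at 11.8 to 17.3 CPM in A and 6.92 to 12.6 CPM in B and C (a log2 difference of 0.65, SE 0.11, edgeR adjusted p = 0.00103), and in each group A was the highest. CLSPN, which carries the replication checkpoint signal to CHK1, was at 90.7 CPM in A against 72.3 and 64.8 in B and C with the control vector, 104 against 54 and 65.3 with hairpin #1, and 98 against 68.1 and 55.7 with hairpin #3 (a log2 difference of 0.63, SE 0.09, edgeR adjusted p = 0.000266). MCM6, a subunit of the replicative helicase, was higher at 0.45 and PCNA, the sliding clamp, at 0.30 (edgeR adjusted p = 0.000745 and 0.0144). In 32 of the 42 genes A lay above B and C in all 3 groups, against 16.0% of all tested genes. Without hairpin #1 A the count called higher was 14.

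Promoter stretches of 6 of these genes are shown for the E2F element, searched as TTTGGCGC, TTTCCCGC or TTTCGCGC on both strands in the same windows. The forms can overlap, and capitals mark the joined match.
MCM6 (chr2:135876513-135876542, minus strand): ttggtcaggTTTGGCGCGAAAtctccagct
MCM2 (chr3:127598404-127598433, plus strand): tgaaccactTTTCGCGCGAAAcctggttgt
CLSPN (chr1:35769965-35769994, minus strand): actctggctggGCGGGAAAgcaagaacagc
UHRF1 (chr19:4909476-4909505, plus strand): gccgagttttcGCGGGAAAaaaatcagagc
CDC6 (chr17:40287875-40287904, plus strand): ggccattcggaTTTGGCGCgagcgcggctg
POLA1 (chrX:24693770-24693799, plus strand): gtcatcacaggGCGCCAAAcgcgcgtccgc
In MCM6 (1 of 2 stretches shown) and MCM2 the marked match joins 2 overlapping forms. Of the 24 called S phase genes with a promoter in the table, 13 held a match, against 2.79% of all promoters and 4.46% of those of tested genes. None of the 24 held the kappaB letters, against 1.59% of the promoters of tested genes, and 1 of 32 (3.12%) in the whole S phase list did. None of the 10 called cytokine promoters held the E2F letters, against 4.46%. In so few promoters a count of none is near these shares.

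The mitotic programme went the same way in fewer genes. Of 54 G2/M genes, 22 (40.7%) were higher, 1 (RANGAP1, a regulator of nuclear transport) was lower and 31 did not pass, with a median of 0.22. MKI67, the proliferation marker Ki-67, stood at 583 CPM in A against 407 and 401 in B and C with the control vector, 669 against 517 and 423 with hairpin #1, and 605 against 484 and 363 with hairpin #3 (a log2 difference of 0.52, SE 0.09, edgeR adjusted p = 0.000836). KIF20B, a mitotic kinesin, and CDCA2, which targets protein phosphatase 1 to chromatin, were higher at 0.53 and 0.56 (edgeR adjusted p = 0.00234 and 0.00239). For these genes B minus C, at 0.37 and 0.36 and not called, was about as large as A minus B, at 0.35 and 0.39. Defining members such as CCNB2, CDC20, CDK1 and TOP2A did not pass, at 0.02, 0.14, 0.22 and 0.22. Without hairpin #1 A, 10 members were called higher, and without control A, 14. The list median was 0.13 against B and 0.32 against C, whereas that of S phase was 0.33 and 0.34.

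Among 23 cyclins and CDK inhibitors, 3 were higher and 2 (8.70%) lower, shares near the 9.46% and 9.70% of all tested genes. CDKN2B and CDKN1A, the inhibitors p15 and p21, were the lower members, at 17.1 to 43.9 CPM in A and 24.1 to 67.1 CPM in B and C for CDKN2B, and 218 to 494 CPM in A and 303 to 722 CPM in B and C for CDKN1A (log2 differences of -0.66 and -0.37, edgeR adjusted p = 0.00712 and 0.00774). The first call was lost without hairpin #1 A and the second without either that library or control A. E2F2, an activator E2F, was higher at 0.62 (edgeR adjusted p = 0.00355), which was lost without hairpin #3 A. CCND1, cyclin D1, did not pass, at 1128 CPM in A against 1184 and 1157 in B and C with the control vector, 600.3 against 383 and 540 with hairpin #1, and 654 against 559 and 537 with hairpin #3 (a log2 difference of 0.20, SE 0.10, edgeR adjusted p = 0.167). Of 24 quiescence and FOXO genes, 9 (37.5%) were lower and 3 higher. PIK3IP1, an inhibitor of PI3 kinase, was at 1.68 to 2.71 CPM in A and 4.16 to 6.93 CPM in B and C (a log2 difference of -1.29, SE 0.18, edgeR adjusted p = 0.000279), and YPEL3, a growth suppressor, at 11.9 to 15.6 CPM in A and 24.9 to 32.5 CPM in B and C (a log2 difference of -1.13, SE 0.09, edgeR adjusted p = 3.73e-06), while FOXO4 lost its call when any 1 of 5 libraries was left out.

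Replication-dependent histone genes did not follow the S phase genes. Their mRNA normally ends in a stem-loop without a poly(A) tail, so a poly(A) library holds only a fraction of it. Of 54 listed, 24 were tested. Of these, 5 (20.8%) were lower, against 9.70% of all tested genes, and none higher, with a median of -0.24. HIST1H2AC was at 22.5 to 27.8 CPM in A and 32.3 to 50.3 CPM in B and C (a log2 difference of -0.75, SE 0.10, edgeR adjusted p = 0.000217), and HIST1H2BD and HIST1H3E were lower at -0.63 and -0.95 (edgeR adjusted p = 0.00203 and 0.00415). These genes are near copies of each other, among which reads may be split. Without control A, 3 were called.

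**Figure D3:**
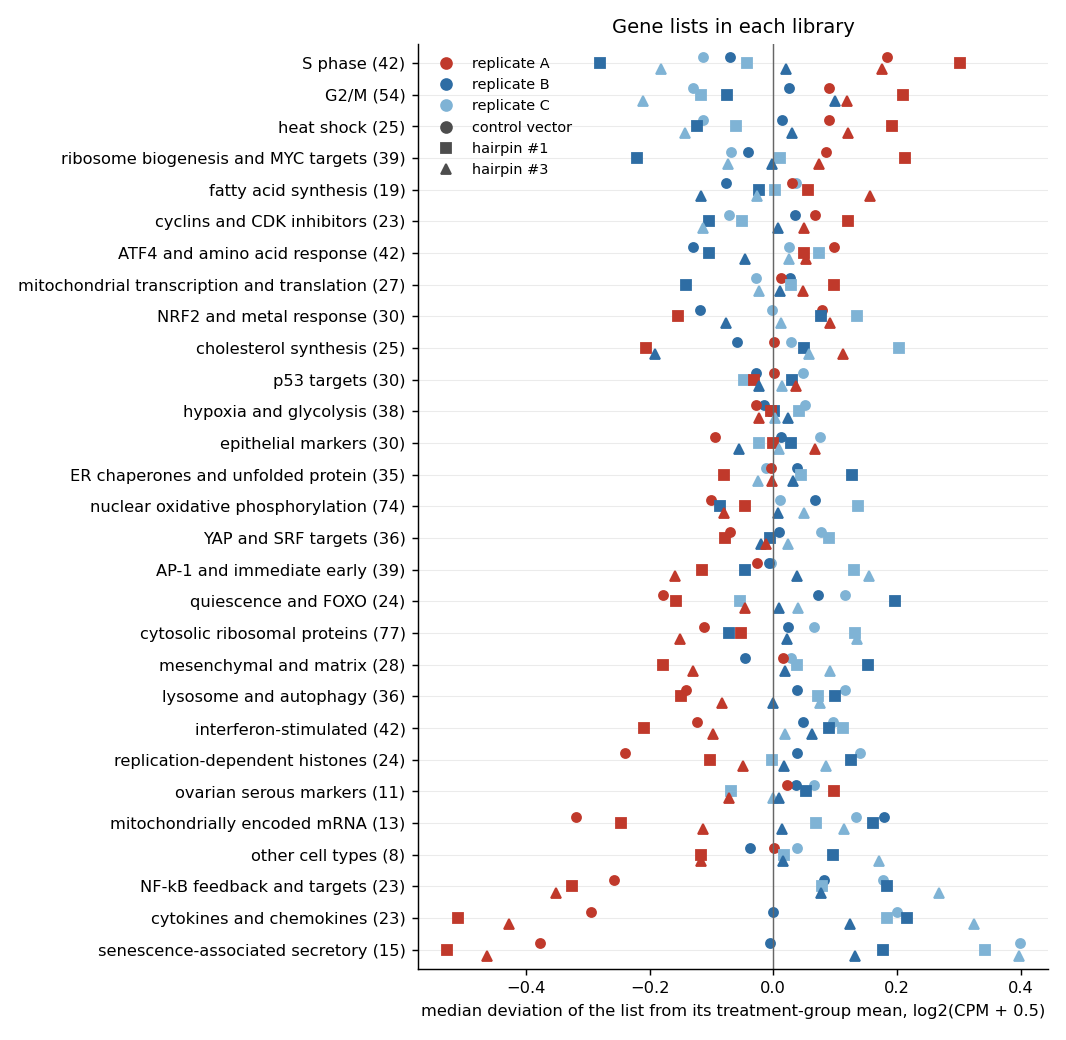
For each gene list (number of tested members in brackets) a point gives 1 library, as the median over members of the deviation of log2(CPM + 0.5) from the treatment-group mean. The A libraries (red) lie right of zero for S phase and G2/M and left of it for NF-kB, cytokine, secretory and mitochondrially encoded genes in all 3 treatment groups, while for p53 and epithelial genes the letters are mixed.

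Mitochondrially encoded transcripts were lower in A. These genes specify core subunits of the respiratory chain and ATP synthase and are transcribed as long polycistrons from the mitochondrial genome. Of 13 tested mRNAs, 8 (61.5%) were lower, none was higher, and the median was -0.36. MT-ND4, a subunit of complex I, stood at 3072 CPM in A against 4940.5 and 4778 in B and C with the control vector, 3178 against 5116 and 4513 with hairpin #1, and 3476 against 4204 and 4853 with hairpin #3 (a log2 difference of -0.55, SE 0.08, edgeR adjusted p = 0.000469). MT-CO2 of complex IV was at 2916 to 3209 CPM in A and 3760 to 4624 CPM in B and C (a log2 difference of -0.50, SE 0.08, edgeR adjusted p = 0.000445), and MT-ND6, the mRNA of the other strand, at 237 to 335 CPM in A and 348 to 463 CPM in B and C (a log2 difference of -0.51, SE 0.10, edgeR adjusted p = 0.0019). MT-ND1, MT-ND2 and MT-ND3 did not pass, at -0.21, -0.18 and -0.22. As a share of all counts, the mitochondrial genome gave 2.75%, 2.91% and 3.03% in A and 3.48% to 4.01% in B and C, with 95% Wilson intervals of at most 0.00861 percentage points to either side, which cover counting error only. The mean difference of -0.836 points reached the smallest p-value that the 27 choices of 1 library per treatment group allow (two-sided exact permutation test, p = 0.037), and 0.0926 after adjustment over 10 library measures. The mitochondrial share was not alone in this. The shares of the 10 top genes, of long noncoding RNA and of histone genes reached the same p-value, each lowest in A within every group. In RNA of whole cultures, fewer cells with a transcript and less of it per cell cannot be told apart.

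Nuclear genes of the same complexes had a smaller median difference. Of 74 tested, 16 (21.6%) were lower, against 9.70% of all tested genes, and none higher, with a median of -0.12. Their summed level with hairpin #1 was 6502 CPM in A against 6076 in B and 6912 in C, so A was not below B there. ATP5G2, a subunit of the ATP synthase ring, was at 91.2 to 167 CPM in A and 124 to 251 CPM in B and C (a log2 difference of -0.40, SE 0.08, edgeR adjusted p = 0.0031). NDUFA1 and NDUFA3 of complex I were lower at -0.38 and -0.35, calls lost without hairpin #1 A or hairpin #3 A for NDUFA1 and without control A for NDUFA3. The count is uncertain, being 4 without control A, 8 without hairpin #1 A, 2 without hairpin #3 A, 10 without control C, 9 without hairpin #1 C and 6 without hairpin #3 C. The machinery that transcribes and translates the mitochondrial genome was not lower as a group. Of 27 such genes, 5 (18.5%) were higher and 2 lower, with a median of 0.07. TFAM, which packages mitochondrial DNA and starts its transcription, was at 72.3 to 81.9 CPM in A and 58.5 to 70.7 CPM in B and C and above B and C in each group (a log2 difference of 0.29, SE 0.07, edgeR adjusted p = 0.00579). MRPL3, of the mitochondrial ribosome, was higher at 0.29 but not without hairpin #1 A, and TFB1M and POLG2 were lower at -0.59 and -0.32 (edgeR adjusted p = 0.00794, 0.00803 and 0.0308). The count of higher genes was 0 without hairpin #1 A and 2 without hairpin #3 A, and TFB1M lost its call without hairpin #3 A and POLG2 when any 1 of 5 libraries was left out.

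Of 39 tested biogenesis and MYC target genes, 18 (46.2%) were higher and 1 lower, with a median of 0.18. DDX21, a nucleolar helicase, stood at 256 CPM in A against 179.9 and 165 in B and C with the control vector, 232 against 151 and 167 with hairpin #1, and 216 against 163 and 153 with hairpin #3 (a log2 difference of 0.52, SE 0.06, edgeR adjusted p = 9.08e-05). UTP20 of the small subunit processome and the nucleolar protein LYAR were higher at 0.39 and 0.44 (edgeR adjusted p = 0.00125 and 0.00992), the latter not without hairpin #1 A. The count was 6 without hairpin #1 A and 11 without hairpin #3 A. Of 77 cytosolic ribosomal protein genes, none was higher and 22 (28.6%) were lower, with a median of -0.17 and 71 negative. Their summed level with hairpin #1 was 46100 CPM in A against 45330 in B and 52330 in C, so A was not below B there. RPL28 was at 516 to 638 CPM in A and 613 to 824 CPM in B and C (a log2 difference of -0.38, SE 0.08, edgeR adjusted p = 0.00372), and RPS19 and RPS28 were lower at -0.33 and -0.34, calls lost without control A or hairpin #3 A and, for RPS28, also without control C or hairpin #3 C. Calls here shifted with single libraries, from 1 without hairpin #3 A and 2 without control A to 46 without hairpin #1 B, with 13, 8, 11 and 4 without hairpin #1 A, control C, hairpin #1 C and hairpin #3 C, and the call of RPL28 was lost without hairpin #3 A.

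Stress programmes did not move as 1 block. Heat shock genes, the cytosolic chaperones that HSF1 controls, were higher, with 10 of 25 tested (40.0%) called, none lower and a median of 0.19. HSPA1B, an inducible HSP70, stood at 102 CPM in A against 71.6 and 73.6 in B and C with the control vector, 84.3 against 45 and 46.5 with hairpin #1, and 90.7 against 60.1 and 49.4 with hairpin #3 (a log2 difference of 0.70, SE 0.08, edgeR adjusted p = 4.29e-05), and reads may be split with its near copy HSPA1A. HSP90AA1, the inducible HSP90, was higher at 0.32 and its cochaperone gene CHORDC1 at 0.52 (edgeR adjusted p = 0.0135 and 0.00333). HSPB1 and BAG3 did not pass, at -0.22 and -0.12. Without hairpin #1 A, 5 heat shock genes were called, and HSPA4L, at 0.47, was not among them.

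Chaperones of the endoplasmic reticulum leaned the other way, as a list only with hairpin #1. Of 35 tested, 8 (22.9%) were lower and 1 higher, with a median of -0.085. The median was -0.008 with the control vector, -0.125 with hairpin #1 and -0.007 with hairpin #3. HSPA5, the lumenal chaperone BiP, was at 773 CPM in A against 992 and 881 in B and C with the control vector, 546 against 930.3 and 845 with hairpin #1, and 600.3 against 825 and 824 with hairpin #3 (a log2 difference of -0.47, SE 0.08, edgeR adjusted p = 0.00106), and MANF, a secreted stress factor, was lower at -0.52 and the ubiquitin ligase SYVN1 at -0.38 (edgeR adjusted p = 0.000869 and 0.00343), the latter lost without hairpin #3 A. The count was 5 without control A, control B or hairpin #3 B, 4 without hairpin #3 C, 3 without hairpin #1 A or hairpin #1 C, and 2 without hairpin #3 A. In the ATF4 and amino acid response 7 of 42 (16.7%) were higher and 3 (7.14%) lower. The shares over all tested genes were 9.46% and 9.70%, and calls were more frequent among abundant genes. PSAT1, of serine synthesis, was higher at 0.46, while CEBPB and PPP1R15A were lower at -0.58 and -0.49 (edgeR adjusted p = 0.00126, 0.000282 and 0.00438). ATF4 itself did not pass, at 0.00. The higher count of this list was 2 without control A or control B, 3 without hairpin #1 A and 4 without hairpin #3 C.

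Of 30 p53 targets, 6 were lower, a larger share than the 9.70% of all tested genes. Another 2 (6.67%) were higher, against 9.46% of all tested genes. The median of the p53 targets was -0.04, and 1 target was called lower without hairpin #1 A. GDF15, a stress cytokine, was at 9.77 to 36.5 CPM in A and 15.6 to 59.8 CPM in B and C (a log2 difference of -0.68, SE 0.13, edgeR adjusted p = 0.0025). BBC3, the apoptosis gene PUMA, was lower at -0.42, which was lost without hairpin #1 A. Of 38 hypoxia and glycolysis genes, 6 (15.8%) were lower and 3 higher, and NDRG1 was lower at -0.61 (edgeR adjusted p = 0.00126), while ADM at -0.38 and PDK3 at 0.81 each lost their call when any 1 of 3 libraries was left out. The lower count here was 3 without control A, control C or hairpin #3 A and 1 without hairpin #1 A. Of 30 NRF2 and metal response genes, 6 were lower and 5 (16.7%) higher, both larger shares than the 9.70% and 9.46% of all tested genes. The medians of this list were 0.117 with the control vector, -0.297 with hairpin #1 and 0.154 with hairpin #3. MT1E, a metallothionein, was at 5.52 to 18.1 CPM in A and 1.1 to 11.7 CPM in B and C (a log2 difference of 1.16, SE 0.17, edgeR adjusted p = 0.000353), and AKR1C3, an aldo-keto reductase, at 2.59 to 25.4 CPM in A and 6.12 to 70.3 CPM in B and C (a log2 difference of -1.11, SE 0.16, edgeR adjusted p = 0.000282), both families of near copies. AKR1C1 was lower at -0.92, a call lost when any 1 of 6 libraries was left out. The lower count was 1 without hairpin #1 A, 4 without control B, and 3 without control C, hairpin #1 C or any hairpin #3 library, and the higher count was 3 without control A, control C, hairpin #3 A or hairpin #3 B.

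Lysosomal and autophagy genes were lower in 16 of 36 cases (44.4%), with none higher and a median of -0.19. WIPI1 and GABARAPL1, which act in autophagosome formation, were at 11.8 to 16.1 CPM in A and 17 to 28.3 CPM in B and C for WIPI1, and 36.3 to 38.9 CPM in A and 43.9 to 75.1 CPM in B and C for GABARAPL1 (log2 differences of -0.64 and -0.62, edgeR adjusted p = 0.000296 and 0.000852). CTSS, a lysosomal protease, was lower at -0.57, not without hairpin #3 A. The count was 10 without control A and 9 without hairpin #1 A. The cholesterol synthesis list had a median of -0.03 and 1 call of 25, LPIN1, higher at 0.31 (edgeR adjusted p = 0.00504). LPIN1 encodes a phosphatidate phosphatase and not an enzyme of cholesterol synthesis. Of 19 fatty acid genes 5 (26.3%) were higher, against 9.46% of all tested genes, and 1 lower. The median was 0.046 with the control vector, 0.076 with hairpin #1 and 0.235 with hairpin #3. ACACA, acetyl-CoA carboxylase, led at 0.32 (edgeR adjusted p = 0.00358). The synthetase genes ACSL3 and ACSL1 were higher at 0.27 and 0.26, and neither call held without hairpin #3 A. The higher count was 3 without control A or hairpin #1 A, 1 without hairpin #3 A and 8 without hairpin #1 C.

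Of 30 epithelial markers, 3 (10.0%) were lower and 1 higher, against 9.70% and 9.46% of all tested genes, and 1 to 5 were lower with 1 library left out. KRT7, a simple epithelial keratin, was lower at 2615 CPM in A against 3441 and 4235 in B and C with the control vector, 2007 against 2917 and 3305 with hairpin #1, and 1809.8 against 2342 and 2493 with hairpin #3 (a log2 difference of -0.53, SE 0.08, edgeR adjusted p = 0.000623). KRT8, KRT18 and EPCAM did not pass, at 0.05, 0.01 and 0.21. TJP3 and SPINT1 were called lower at -0.76 and -0.31, and the calls were lost when any 1 of 4 and of 6 libraries was left out. Among 11 serous markers, 3 (27.3%) were lower and 1 (9.09%) higher, with a median of -0.25. The median was 0.032 with the control vector, 0.147 with hairpin #1 and -0.143 with hairpin #3, so the list was lower as a group with hairpin #3 only. MSLN, mesothelin, was lower at -0.54 and MECOM, a transcription factor often amplified in ovarian cancer, higher at 0.43 (edgeR adjusted p = 0.000266 and 0.000725), while PAX8 did not pass at 0.12.

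**Figure D4:**
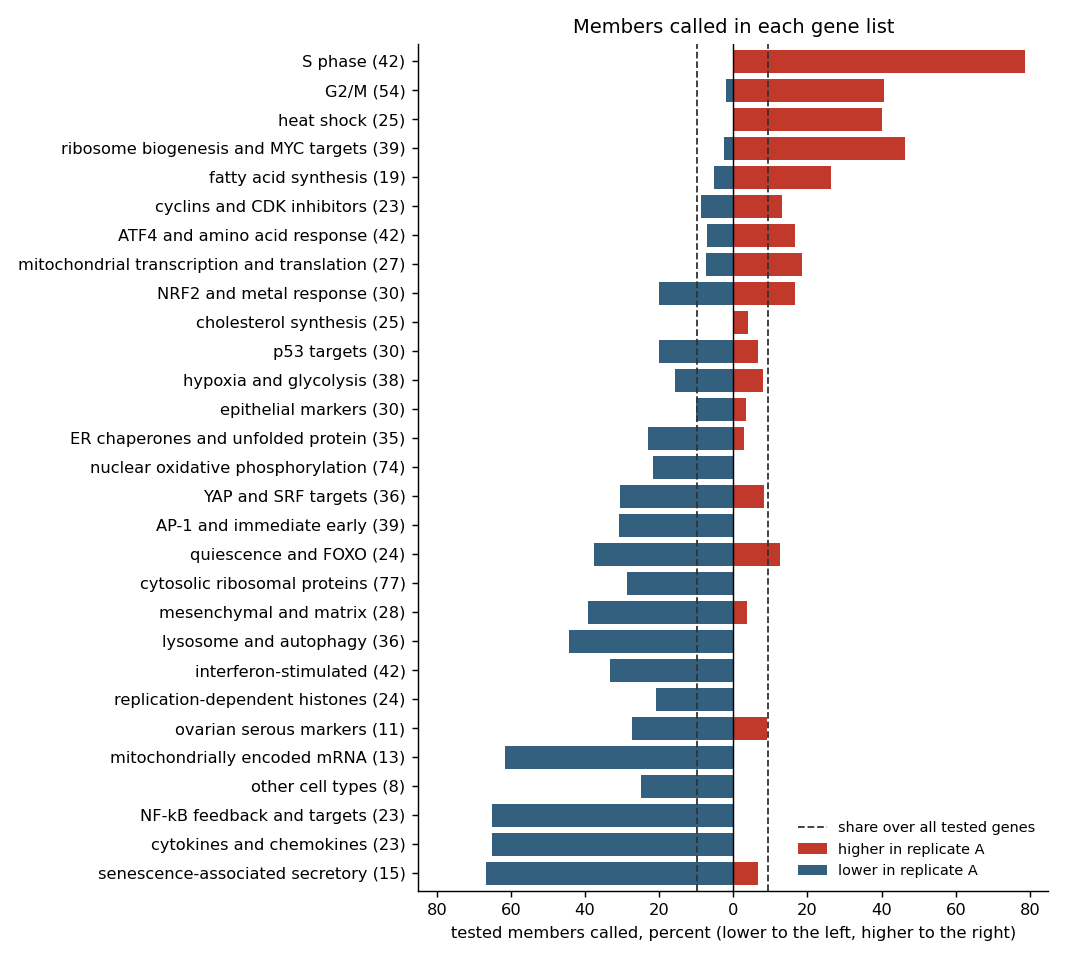
Bars give the percent of tested members of each list (number in brackets) called lower in A (left) or higher in A (right) at an edgeR adjusted p-value under 0.05. Dashed lines mark the 9.70% and 9.46% of all tested genes, and S phase (78.6% higher) and the secretory, cytokine and NF-kB lists (66.7%, 65.2% and 65.2% lower) lie farthest from them.

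The largest rises outside these lists had no common list. Among genes at 10 CPM or more on average with A above B and C in every group, LRRN4, a leucine-rich repeat membrane protein, led at 16.6 CPM in A against 8.26 and 6.45 in B and C with the control vector, 31.2 against 11 and 9.99 with hairpin #1, and 35.8 against 19.2 and 20.2 with hairpin #3 (a log2 difference of 1.20, SE 0.12, edgeR adjusted p = 1.05e-05). DCLK1, a microtubule-associated kinase, was at 18.5 to 66 CPM in A and 11.8 to 36.9 CPM in B and C (a log2 difference of 1.18, SE 0.15, edgeR adjusted p = 9e-05). RAB30, a Golgi GTPase, PEG10, an imprinted gene of retrotransposon origin, and the zinc finger gene ZNF778 were higher at 0.88, 0.73 and 0.79 (edgeR adjusted p = 3.39e-05, 9.38e-05 and 0.00012). HAPLN1, which links hyaluronan to proteoglycans, FRMD5 and SLC7A2, a transporter of cationic amino acids, were higher at 0.74, 0.74 and 0.72. ZBTB20 was higher at 0.85 and lost its call when any 1 of 4 libraries was left out. The 10 largest rises thus ran from 0.72 to 1.20, against -2.26 to -1.44 for the 10 largest falls.

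The difference also followed the base composition of genes. Across the 9693 genes at 10 CPM or more, the log2 difference correlated with GC content of the longest transcript at -0.37 and with log2 length at 0.24, as a description across genes. Median differences ran from 0.125 in the bin of lowest GC content to -0.108 in the highest of 5 equal bins, falling within each treatment group. Of the 1939 genes in the shortest of 5 bins by length, 386 were called lower and 86 higher. The nuclear oxidative phosphorylation, ribosomal protein and histone lists hold short genes, with median lengths of 2492, 2977 and 1390 bases. The mean GC content of the counted genes was 49.4% to 49.6% in A and 49.5% to 50.3% in B and C, and A was lowest within each group (exact permutation p = 0.0741). Once trends with GC content and transcript length had been taken out of each library, 2746 genes were called, of which 2107 were among the 3061 with the same direction. In that fit 33 S phase members were called higher, G2/M had 24, cytokines 13 lower and NF-kB genes 14 lower, whereas nuclear oxidative phosphorylation went from 16 to 9 lower, with 2 higher, ribosomal proteins from 22 to 13 and p53 targets from 6 to 2. Among named genes, the calls of NDUFA1, CSF3, LTB, BBC3, CDKN1A, ADM, ACSL3, RPS28, RPS19, FOXO4, TJP3, SPINT1, COL1A1, CDH5 and TNFAIP6 were lost in that fit. Among the nuclear chromosomes, 19 had the lowest median difference (-0.093) and 18 the highest (0.112), and with trends removed these became -0.03 and 0.057.

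**Figure D5:**
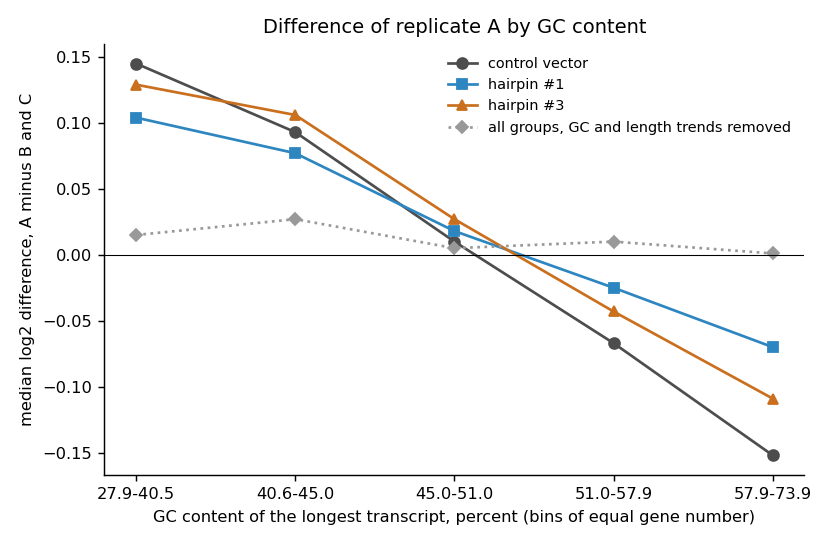
Median log2 difference of A from B and C in 5 bins of equal gene number by GC content (genes at 10 CPM or more on average), for each treatment group. All 3 lines fall with GC content, and the dotted line with trends removed stays within 0.03 of zero.

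The share of counts in the 10 top genes of each library was 5.04% to 5.49% in A and 5.85% to 7.26% in B and C, lowest in A within each group (exact permutation p = 0.037, adjusted p = 0.0926 over 10 measures). Library totals, at 16850854 to 21411030 in A and 18012514 to 23890191 in B and C, gave p = 0.407 by the same exact permutation test. The part of these library values in the gene differences was not tested.

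Finally, the letter was set against the comparison of the study itself, knockdown against control. That comparison called 2511 genes (15.7%) at an adjusted p-value under 0.05 and 2-fold, and 2695 when the 3 A libraries were left out. For 4 genes (0.0250%) the difference of A depended on the treatment group, with 688 at an unadjusted p-value under 0.05. COL1A1, a fibrillar collagen, was lower in A with hairpin #1, at 94.9 CPM in A against 417 in B and 425 in C, and not in control, at 20 CPM in A against 16.7 in B and 16.9 in C. The others were TSPAN1, HMGCS1 and CGN.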

How the data were processed

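Messenger RNA was sequenced from 9 OVCA433 libraries. Per the labels the libraries were poly(A)-selected and non-directional, so reads of overlapping genes on opposite strands could not be told apart. The submitters' processing notes name HISAT2 2.0.5, featureCounts 1.5.0-p3 and hg38. The values used were raw counts per gene (58676 genes) deposited by the authors, without normalization.

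Genes were filtered with filterByExpr (minimum count 10, minimum total count 15) for the 3 treatment groups, leaving 15975 with 99.889% of the counts. TMM factors and the quasi-likelihood test of edgeR 4.0.16 in R 4.3.3 were used, with a term for the treatment group and 1 for letter A (5 residual degrees of freedom). A gene was called at a Benjamini-Hochberg adjusted p-value under 0.05 over all tested genes. CPM are counts scaled by the TMM library sizes. Differences are log2, A minus the mean of B and C, and SEs come from the F statistic. Single values per library were tested by two-sided exact permutation. Library totals give the depth. Many named genes overlap other counted genes, among them MSLN, SYVN1, RPS28, RPL28, C3, MT-ND4, CCNE2, CCND1, JUNB, LOX, NDUFA3 and KRT7, so their counts are uncertain.

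Letters, 29 gene lists (1004 genes, 28 in more than 1 list) and tests were chosen with earlier results of these data known, and 2 further lists (BMP and SMAD targets, acute phase and complement) after these values were seen. Named were the genes of the study (LMNB1, CCND1, CDH2, VIM, IL1A, IL6 and MPZL3), the 10 largest rises and 10 largest falls among called genes averaging 10 CPM or more with A beyond B and C in all 3 groups, the 3 members per list with the largest called difference, and the 3 genes with the smallest interaction p-value. Further list members, and CGN, ALDH1A3, CENPE and IGFBP6, were named outside this rule. Some genes the rule picks are not reported here. Positions are GRCh38, and GC content was taken from the longest GENCODE 29 transcript. Promoters are from RefSeq (GRCh38.p14), leaving out chromosome 8. Replicate pairs differed by more than sampling noise. Alternatives covered the filter, scaling, DESeq2 1.42.0, blocks, thinning, GC and length trends, and each library or group left out.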

Additional observations from a re-analysis of the deposited data

Results flagged for a closer look

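4 genes were singled out because the difference of A from B and C differed between treatment groups by edgeR's interaction test. COL1A1, a fibrillar collagen, had log2 differences of 0.26 with the control vector, -2.15 with hairpin #1 and -0.57 with hairpin #3 (edgeR adjusted p = 0.000363). TSPAN1, a tetraspanin, stood at 152 CPM in A against 276 in B and 279.9 in C with the control vector, 3.79 CPM in A against 4.07 in B and 3.43 in C with hairpin #1 and 10.6 CPM in A against 6.36 in B and 5.98 in C with hairpin #3 (edgeR adjusted p = 0.00736). HMGCS1, of cholesterol synthesis, was lower in A with hairpin #1 at 159.7 CPM in A against 246 in B and 266 in C and higher in A with hairpin #3 at 65.6 CPM in A against 39.6 in B and 44.8 in C (edgeR adjusted p = 0.017). CGN, the junction protein cingulin, had differences of 0.08, 1.35 and 1.28 in control, hairpin #1 and hairpin #3 (edgeR adjusted p = 0.025). The test had 3 residual degrees of freedom and other settings called between 0 and 94 genes, so these calls are uncertain. Groups of 3 libraries are too small for a test of single outlying samples.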

How the results depend on the processing

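The number of genes called between A and the other letters was 1403 without the control group and 1257 without hairpin #3, 1343 at an adjusted p under 0.01, and 0 without a treatment block; with a 2-fold difference it was 100 without hairpin #3, 101 by DESeq2, 86 at an adjusted p under 0.01 and 0 without a treatment block. DESeq2 called 2985 genes, of which 2847 were among the 3061. A against B gave 454 genes without the control group, 352 without hairpin #3 and 314 at an adjusted p under 0.01, and A against C gave 1705, 1147 and 1448, with 2174 after GC and length trends were removed. Between B and C, 0 were called without the control group, without hairpin #1, with trends removed or at an adjusted p under 0.01, 1 without hairpin #3, 65 without a filter on low counts and 17 by DESeq2. Genes whose difference depended on treatment numbered 0 without the control group, 12 without hairpin #1, 2 at an adjusted p under 0.01, 94 without a filter and 25 by DESeq2's likelihood ratio test.

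With any 1 library omitted the fits called 1389 to 3917 genes for A against B and C, 105 to 185 with a 2-fold difference, 404 to 1352 for A against B, 1466 to 4392 for A against C, 0 to 4 for B against C and 1 to 78 for dependence on treatment. List medians ranged over -0.111 to -0.014 for endoplasmic reticulum, -0.597 to -0.456 for NF-kB, -0.132 to 0.136 for NRF2, -0.165 to -0.051 for YAP and SRF, -0.119 to 0.06 for epithelial, 0.065 to 0.212 for fatty acid, -0.283 to -0.181 for interferon, -0.238 to -0.094 for matrix, -0.51 to -0.181 for other cell types, -0.311 to 0.037 for serous, -0.296 to -0.134 for quiescence, -0.337 to -0.172 for histone and -1.077 to -0.582 for secretory genes. With a group left out, medians were -0.135 for NRF2, 0.04 for epithelial, 0.067 for serous and -0.756 for other cell types (control vector), -0.173 for interferon, -0.018 for endoplasmic reticulum, -0.055 for YAP and SRF and -0.137 for other cell types (hairpin #1), and -0.457 for NF-kB, -0.798 for secretory, 0.064 for fatty acid and -0.298 for quiescence genes (hairpin #3). The secretory median was -0.769 by DESeq2 and -0.824 over genes of at least 1 CPM, where histones gave -0.356 and other cell types -0.317. Thinning to the smallest library gave -0.333 for histones and -0.095 for other cell types. Removing trends gave 0.037 for epithelial and -0.122 for serous genes, and dropping the treatment block gave -0.404 for serous genes. The agreement between treatment groups was 0.6207, 0.6342 and 0.6777 over genes of at least 10 CPM.

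Of 2548 values of named genes under alternatives, 2235 stayed on the same side of the threshold, 308 kept direction but lost the call and 5 gained one. Of the called values 0 changed sign, whereas some of genes that were not called did, among them MPZL3 and VIM (0.21 and -0.09 without the control group). The cause of these shifts was not tested. With the letter as a replicate block, knockdown against control gave 2571 genes in place of 2511, with 2501 shared. Deviations of libraries with the same letter correlated across genes at 0.40 to 0.47 for A, 0.05 to 0.14 for B and 0.23 to 0.33 for C, so the letters did not pass the rule for pairing. With all 3 letters as the replicate block, A against the others gave 3347 genes. Depth limits calls among genes of few counts, and a design with 1 library left out cannot bring the mitochondrial share under 0.05.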
